A study of Mus musculus with 8 samples.

Results

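The 8 striated muscle miRNAs described here were mmu-miR-1, mmu-miR-133a, mmu-miR-133a*, mmu-miR-133b, mmu-miR-206, mmu-miR-499, mmu-miR-208a and mmu-miR-208b. They were taken by name from the probe annotation of an Agilent mouse miRNA array and made up 8 of the 566 mouse miRNAs on it. Each had 2 probes with 10 spots each, which gave 16 probes and 160 spots per array. Levels were measured in brown adipose tissue of male C57Bl6N mice aged 8 weeks, with 3 mice held at 8 °C for 24 h (mice 1 to 3) and 3 mice kept at room temperature, 21 °C (mice 4 to 6). Mouse 1 and mouse 4 were each hybridised to 2 arrays, so that the 6 mice gave 8 arrays. Of the 8 miRNAs, 5 were bright enough to be tested beside 184 other miRNAs (189 in all), and miR-499, miR-208a and miR-208b were not.

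These miRNAs are known as myomiRs, since striated muscle makes most of them. miR-1 and miR-133a are encoded together and are abundant in heart and skeletal muscle, whereas miR-206 and miR-133b are encoded together and belong to skeletal muscle. miR-133a* is the passenger strand, the less used arm, of the miR-133a hairpin. miR-208a, miR-208b and miR-499 lie inside myosin heavy chain genes, of which the hosts of miR-208b and miR-499 are genes of slow fibres. Brown adipocytes and skeletal muscle share precursors that express Myf5, and in mice miR-133 is known to act on the transcript of Prdm16, a regulator that steers such precursors to brown fat.

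The sequences are shown because miRNAs with one seed (bases 2 to 8, in capitals) can share targets and because near-identical miRNAs can share probe signal. Of the 8 names, 5 were matched to mature sequences in a RefSeq table of the mouse assembly GRCm38.p6, each given here 5′ to 3′.
miR-133b: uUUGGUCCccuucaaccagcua
miR-206: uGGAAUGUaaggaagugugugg
miR-499: uUAAGACUugcagugauguuu
miR-208a: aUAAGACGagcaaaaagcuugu
miR-208b: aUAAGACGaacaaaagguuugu
miR-133b lies at chr1:20682834-20682855 and miR-206 at chr1:20679055-20679076, both on the plus strand, and their hairpins are 3686 bases apart. miR-499 lies on the plus strand at chr2:155622893-155622913 within Myh7b. miR-208a at chr14:54949072-54949093 within Myh6 and miR-208b at chr14:54975710-54975731 within Myh7 are both on the minus strand. Within this set miR-208a and miR-208b had the same seed and were identical at 19 of 22 positions, with the differences G10A, A16G and C18U counted from the 5′ end and written miR-208a base first. The seed of miR-499 matched that of the miR-208 pair at 6 of 7 positions, with the difference U8G, miR-499 base first.

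The arrays shared a slide on which each of the 2 rows held a single group, and a row effect and a cold effect cannot be told apart. The 75th percentile of bright probes, used for scaling, lay between 627 and 918 units in cold mice and between 863 and 1408 units in room temperature mice (two-sided exact permutation test, p = 0.2). Between 177 and 187 mouse miRNAs were above background in cold mice, against 200 to 227 in room temperature mice (exact permutation p = 0.1, the smallest that 3 against 3 mice allow). All 4 brown adipocyte miRNAs on a marker list were measured, with summed signals of 6408 to 11330 units in cold mice and 7794 to 13480 units in room temperature mice. One of them, miR-378, is also studied in muscle, and no other tissue was compared. In bulk tissue, fewer cells of a type and less RNA per cell cannot be told apart.

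The members shared by heart and skeletal muscle were lower in cold brown fat. The signal of miR-1, in units of Cy3 fluorescence after background subtraction and averaged over its 2 probes, was 4839, 1794 and 1294 units in cold mice 1, 2 and 3, against 10860, 6672 and 15230 units in room temperature mice 4, 5 and 6. For miR-133a the cold mice gave 647, 290 and 258 units, against 2090, 1428 and 3553 units at room temperature. The groups did not overlap for either miRNA, and mouse 1 was the cold animal closest to room temperature. In unscaled units every cold mouse was below every room temperature mouse for 16.6% of all 566 mouse miRNAs. The passenger strand miR-133a* reached 64.7, 29.7 and 19.0 units in mice 1, 2 and 3, against 225.7, 137 and 261 units in mice 4, 5 and 6. Both arms of the miR-133a hairpin were thus among the miRNAs so placed.

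The skeletal muscle pair showed the same order. miR-133b, which shares most of its sequence with miR-133a, gave 1087, 495 and 372 units in cold mice, against 4482, 2271 and 5036 units in mice at room temperature. Since miR-133a and miR-133b are near-identical, some of their probe signal may be shared. miR-206, a relative of miR-1, gave 81.4, 30.9 and 23.8 units in cold mice, against 207, 123 and 458 units in mice at room temperature. Whether some of this signal came from miR-1, which was far brighter, was not tested. Mouse 3 was the lowest cold animal and mouse 5 the lowest room temperature animal for all 5 of these miRNAs. The mean signal of miR-133b was 652 ± 382 units in cold mice and 3930 ± 1463 units in room temperature mice, and that of miR-206 was 45.4 ± 31.4 units in cold mice and 263 ± 174 units in room temperature mice (SD, n = 3 each).

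The groups were tested after each array was divided by its percentile, on the log2 scale, with limma, a linear model that shares its estimate of the spread over all miRNAs. miR-133a fell by 1.88 ± 0.44 (SE), or 3.67-fold, with an adjusted p of 0.0229 in limma with Benjamini-Hochberg adjustment over 189 miRNAs. miR-133a* fell by 1.89 (limma adjusted p = 0.0222), miR-133b fell by 1.97 (limma adjusted p = 0.0228) and miR-206 fell by 2.05 (limma adjusted p = 0.0453), each with 3 mice per group. One probe of miR-133a* was kept through the room temperature arrays alone; with the other probe alone, in a fit limited to probes above background on all arrays, the difference was -2.24 (limma adjusted p = 0.0333). In that fit miR-206 had a limma adjusted p of 0.0601, so that 3 members passed. Of all 158 miRNAs in it 16 passed, 6 of them lower in cold. miR-1 did not pass the threshold of 0.05, with a difference of -1.73 ± 0.51 (SE) and a limma adjusted p of 0.0549. Thus 4 of the 5 measured members passed in the downward direction, against 6.88% of all 189 miRNAs (15.3% in either direction). The highest cold value was under the lowest room temperature value for all 5, an arrangement found for 18.5% of the 189.

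The median difference was -1.89 over the 5 measured members and -0.02 over all 189 miRNAs, on the log2 scale. One other miRNA, the liver miRNA miR-122, had a difference as low as the members (-2.71, limma adjusted p = 0.115). Its cold values lay at the lower limit set on scaled values, so its fitted size depends on that limit. miR-122 had 1.17 to 1.74 units in cold mice and 7.01, 177 and 77.3 units in mice 4, 5 and 6, so its highest animal was mouse 5, in which the members were lowest among room temperature mice.

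The calls changed when single animals were left out, and each such fit also had a smaller group. Without mouse 1 all 5 members passed the test, whereas without any one of mice 2, 3, 4, 5 or 6 none of them did, although every member kept its direction. Of all 189 miRNAs, 33 passed without mouse 1, 14 of them lower in cold. Without another mouse 8 to 24 passed, with 5 to 11 of them lower. With all 6 mice 29 had passed, 13 of them lower, so the number of calls moved for the whole array. With a mouse left out, the difference of miR-133a ranged between -2.44 and -1.48 on the log2 scale, and its limma adjusted p reached at most 0.108.

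**Figure D1:**
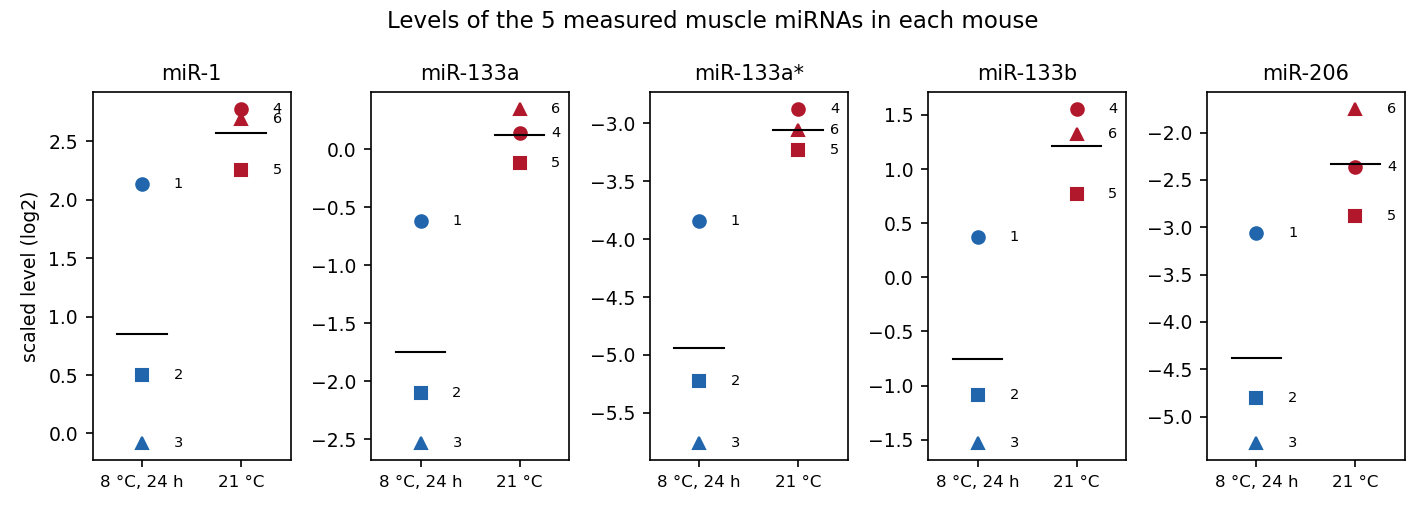
Scaled level on the log2 scale of the 5 measured members in each mouse, with the 8 °C group left of the 21 °C group, mouse numbers beside the points and group means as lines; each panel has its own vertical range. The cold points lie below all room temperature points in every panel, with mouse 1 well above mice 2 and 3.

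The cold animals differed more among themselves than the room temperature animals. The range over the cold mice was between 1.90 and 2.22 log2 units for the 5 members, against 0.35 to 1.13 over the room temperature mice. Mouse 1 lay between 1.65 and 1.98 log2 units above the mean of mice 2 and 3. It was still below the lowest room temperature mouse, by 0.12 for miR-1 (a difference of -0.12) and by 0.61 for miR-133a* (-0.61). The full range over the 6 mice was 2.87 to 3.53 log2 units, compared with a median of 0.67 over all 189 miRNAs, and miR-122 was the 1 other miRNA with a range as wide. The arrays of one animal were much closer: the 2 arrays of mouse 1 differed by 0.03 to 0.17 log2 units and those of mouse 4 by 0.02 to 0.26. The value of 0.26 belonged to miR-133a* and was the one larger than the SD between mice of the same group (0.18).

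Both probes of each measured member were lower in the cold group. Of the 10 probes, 9 passed the test across 329 probes (limma with Benjamini-Hochberg adjustment), against 10% of all probes in the downward direction. The exception was one probe of miR-1 (difference of -1.78, limma adjusted p = 0.0606). For miR-133b the 2 probes differed by -2.36 and -1.57, a gap of 0.79 on the log2 scale. The gap was 0.70 for miR-133a, 0.69 for miR-133a*, 0.35 for miR-206 and 0.10 for miR-1. One miR-133a* probe was above background in more than 0.5 of its spots on 1 of 4 cold arrays and on all 4 room temperature arrays, and it lay at the lower limit of scaled values in mouse 3. Among the 267 probes above background on all arrays, 8 of 9 member probes passed, against 8.24% of the 267.

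The position of the spots on the array moved with these gaps. Over 258 bright probes of other miRNAs, spots in rows 1 to 64 gave 39.6 to 43.2% of their probe's upper-quartile signal on cold arrays, against 95.9 to 98.2% on room temperature arrays. In rows 129 to 192 the order turned, with 95.9 to 101% on cold arrays and 45.7 to 56.1% on room temperature arrays. In the middle rows both were bright, with 87.2 to 92.6% on cold arrays and 94.95 to 96.7% on room temperature arrays. The miR-133b probe with the larger fall had 6 of its 10 spots in the first rows and 1 in the last, whereas the other had 3 and 5. The miR-133a probe with the larger fall likewise had 5 spots in the first rows and 1 in the last, against 4 and 6 for its partner.

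**Figure D2:**
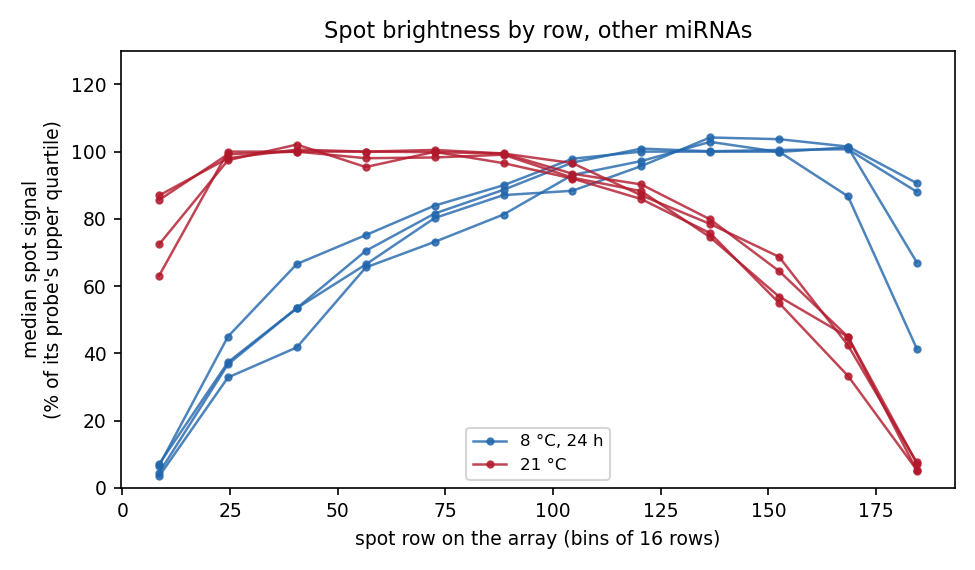
Median spot signal of other miRNAs, in percent of the upper quartile of each probe, against the spot row in bins of 16 rows, with 1 line per array. The 8 °C arrays are dim in the first rows and the 21 °C arrays are dim in the last rows.

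Compared spot by spot, the members stayed below other miRNAs in each band of rows. In rows 1 to 64 the median log2 ratio of cold over room temperature signal, unscaled, was between -3.73 and -3.18 for the 5 members and -1.56 for spots of other miRNAs. In the middle rows it was between -2.37 and -1.85 for the members and -0.38 for the others. In rows 129 to 192 it was between -1.88 and -0.45 for the members and 0.70 for the others. The members were thus lower than the others by a similar amount in the first and middle bands (a difference of -2.17 to -1.62 and of -1.98 to -1.46) and by -2.58 to -1.15 in the last. Single spots of the members were lower in the cold group at 37 of 37 positions in the first band, 30 of 30 in the middle and 25 of 33 in the last. The same count was not made for other miRNAs, whose median was also lower in cold in the first and middle bands. The member counts there thus include the brightness of the arrays. Spots of one array are not replicates, and no test was made on them.

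**Figure D3:**
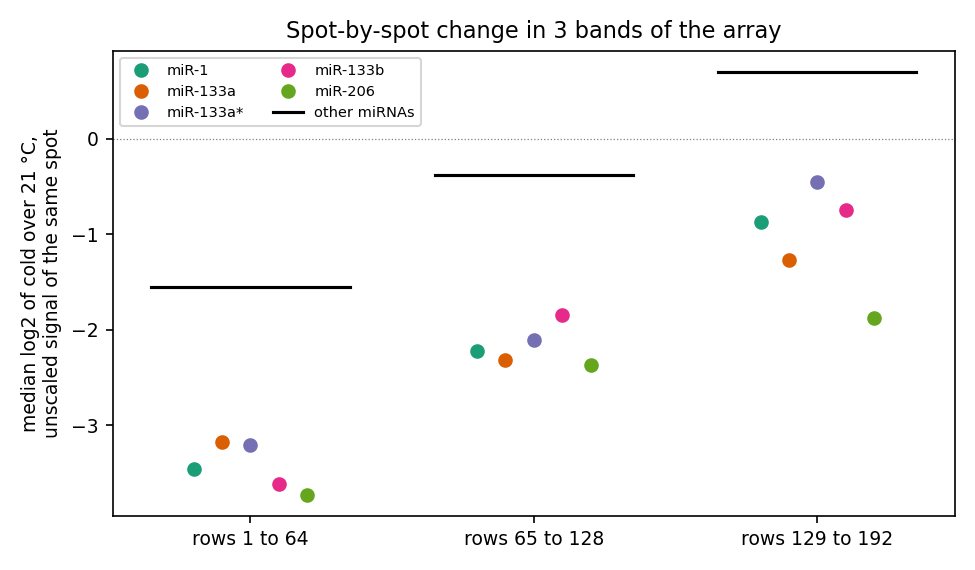
Median log2 ratio of cold over 21 °C signal at the same spot, for each of the 5 members (points) and for other miRNAs (black lines), in 3 bands of array rows. The level of both shifts from band to band, and the points stay below the line in each.

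The alternatives added after seeing this pattern changed the calls more than the sizes. After spots were divided by the local brightness of their part of the array, miR-133a (-1.75, limma adjusted p = 0.0387) and miR-133b (-1.80, limma adjusted p = 0.0387) passed, and they were 2 of 5 members against 5.82% of all miRNAs. miR-1 had a difference of -1.76 (limma adjusted p = 0.0752), miR-133a* of -1.63 (0.0524) and miR-206 of -2.01 (0.0603). The gaps between the 2 probes became 0.21 for miR-133a, 0.03 for miR-133a*, 0.07 for miR-133b, 0.25 for miR-206 and 0.13 for miR-1. Of the 10 probes, 3 passed, against 3.34% of all. Of the 9 member probes that were above background on all arrays, 2 passed, against 2.25% of the 267 such probes. The cold mice still lay below the room temperature mice for all 5 members, as they did for 12.2% of the 189 miRNAs. With central spots alone the members' differences were -1.91 to -1.61, with limma adjusted p between 0.0794 and 0.103, so that 0 of 5 passed, against 2.21% of all, while all 5 had an unadjusted limma p under 0.05 in the downward direction, as did 13.8% of all. Of the 8 member probes with central spots, 2 passed, against 1.71% of all, and for miR-133b the groups overlapped. Of the 7 member probes that were above background on all arrays, 1 passed, against 1.245% of the 241 such probes with central spots.

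Ratios between the 5 measured members ranged less over the mice than the levels did. A group difference that the members share cancels in a ratio, so a smaller range follows from it. The log2 ratio of miR-133a over its passenger strand miR-133a* was 3.22, 3.13 and 3.23 at 8 °C, against 3.02, 3.11 and 3.41 at 21 °C. That of miR-1 over miR-133a, which come from shared transcripts, was 2.75, 2.60 and 2.45 at 8 °C, against 2.64, 2.37 and 2.34 at 21 °C. A ratio carries the brightness of 2 probe pairs, so its level has no meaning here and its variation does. The cold and room temperature values overlapped for both ratios.

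Over all 10 pairs the difference of cold minus room temperature lay between 0.01 and 0.32 log2 units. The range of a ratio over the 6 mice was 0.40 to 0.97, compared with 2.87 to 3.53 for the levels, and the widest were miR-133a* over miR-206 (0.97), miR-1 over miR-206 (0.86) and miR-133b over miR-206 (0.85). The median range of a single miRNA was 0.67 over all 189, and ratios between other miRNAs were not computed. In the two-sided exact permutation test over mice the smallest p was 0.1, which is the smallest possible with 3 against 3, and every p adjusted over the 10 pairs was 1.0. The groups failed to overlap for 1 pair, miR-1 over miR-206, with 5.19, 5.30 and 5.20 at 8 °C, against 5.15, 5.14 and 4.44 at 21 °C. Its difference of 0.32 became 0.09 without mouse 6, the animal with the most miR-206, and -0.04 with central spots. Which pairs separated the groups depended on the setting. With the brightest probe these were miR-1 over miR-133a* (0.46), over miR-133b (0.58) and over miR-206 (0.45), and with the software's total signal miR-1 over miR-133a (0.34), over miR-133a* (0.44) and over miR-133b (0.39). With central spots it was miR-133a* over miR-133b (-0.30), and after division by local brightness there was none. A p that misses the threshold does not show that the proportions were equal.

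**Figure D4:**
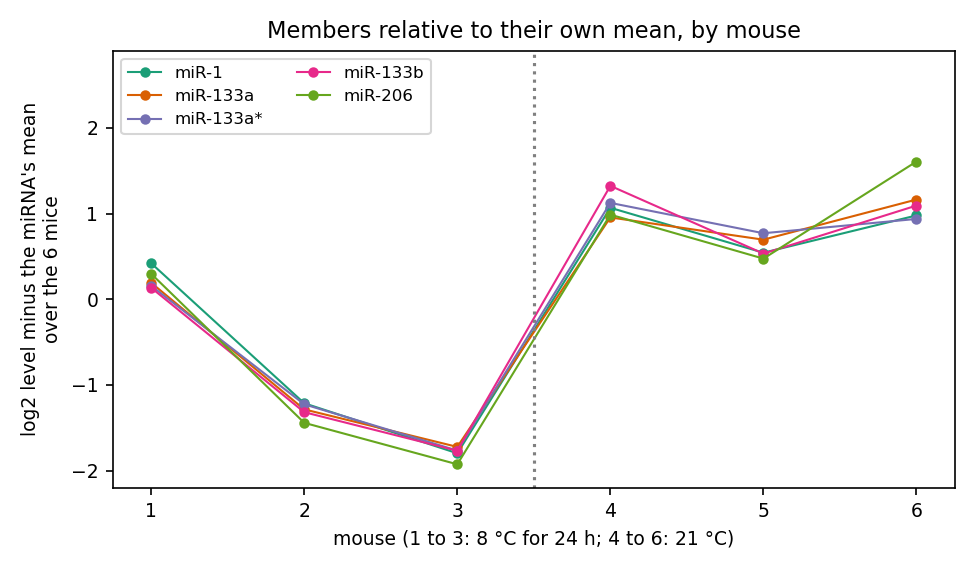
Log2 level of each measured member minus its own mean over the 6 mice, with the 3 mice at 8 °C left of the dotted line and the 3 at 21 °C right of it. The 5 lines lie close together in most mice, with miR-206 in mouse 6 the point farthest from the rest.

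The myosin gene members, of heart and slow fibres, were near the background. miR-499 had 5.23 and 7.04 units on the 2 arrays of mouse 1, 1.65 in mouse 2 and 0.20 in mouse 3, against 14.4 and 17.5 units on the arrays of mouse 4, 7.13 in mouse 5 and 22.5 in mouse 6. It was above background on 0 of 4 cold arrays and on 3 of 4 room temperature arrays, the exception being mouse 5. Single spots were above background at 2 of 79 in the cold group and 43 of 79 in the room temperature group. These counts pool the 2 arrays of mouse 1 and of mouse 4, so those mice weigh more than the others.

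miR-208b, which comes from the slow myosin gene Myh7, had 2.67 and 3.35 units on the arrays of mouse 1, -0.90 in mouse 2 and -1.21 in mouse 3, against 10.1 and 14.2 units on the arrays of mouse 4, 6.39 in mouse 5 and 20.1 in mouse 6. It was above background on 0 of 4 cold arrays and 3 of 4 room temperature arrays, which were both arrays of mouse 4 and that of mouse 6. Single spots were above background at 0 of 73 in the cold group and 40 of 80 in the room temperature group, again with both arrays of mice 1 and 4 counted. miR-208a, from the heart gene Myh6, was above background on no array, with 0 of 77 cold spots and 0 of 73 room temperature spots. The miR-208a signal lay between -3.77 and -1.58 units on the cold arrays and between -2.56 and -1.66 units on the room temperature arrays. miR-208a thus stayed at background on the arrays where miR-208b, its near-identical relative, was above it.

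The difference was -12.5 units for miR-499 (2.66 ± 3.1 in cold and 15.2 ± 7.72 in room temperature mice, SD, n = 3 each). For miR-208b it was -12.6 units (0.30 ± 2.35 in cold and 12.9 ± 6.89 in room temperature mice). Each had an exact permutation p of 0.1 and, adjusted over the 3 dim members, 0.15. In unscaled units the groups did not overlap for either, as for 16.6% of all 566 mouse miRNAs without a filter. Per 1000 units of the array percentile, miR-499 was 9.73, 1.97 and 0.21 in mice 1, 2 and 3, against 16.2, 8.26 and 15.99 in mice 4, 5 and 6. Mouse 1 thus overlapped with mouse 5 (exact permutation p = 0.2). On that scale miR-208b (p = 0.1) did not overlap between the groups, and neither did miR-208a (p = 0.1 in the same exact permutation test), which no array detected; 17.5% of the 566 did not. No fold is given because the bound set by the lowest signal above background came out under 1. Without the filter on dim probes miR-499 and miR-208b had a limma adjusted p of 0.427. miR-208a lay at the lower limit of scaled values in both groups, so that fit holds no test of it. The spots of miR-499 and miR-208b were also unevenly placed. In the last rows, where room temperature arrays were dim, lay 11 of the 20 miR-499 spots and 10 of the 20 miR-208b spots.

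**Figure D5:**
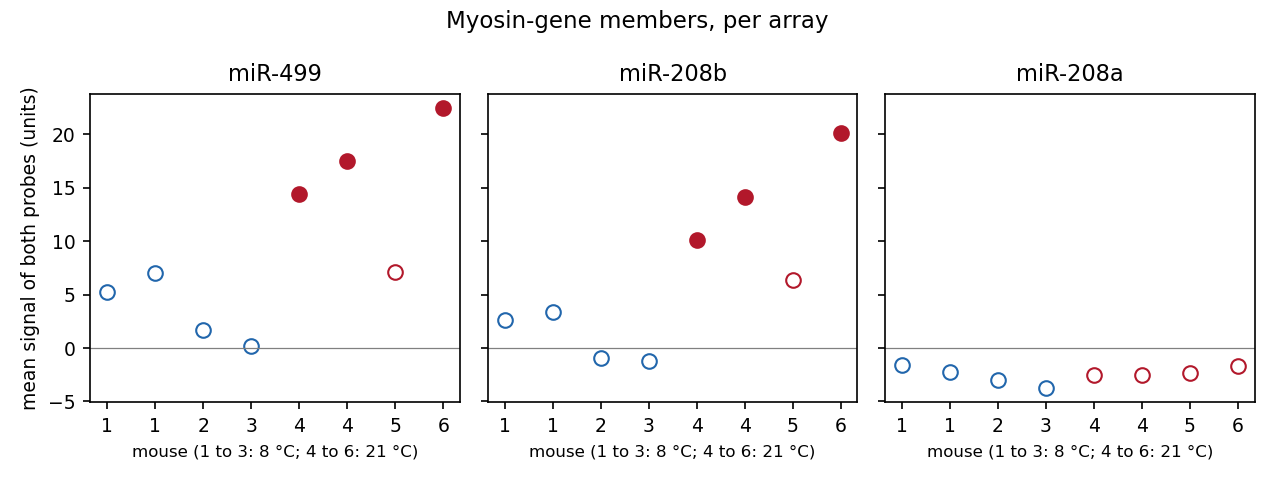
Mean signal of both probes, in linear units, on each of the 8 arrays for the 3 myosin gene members; filled points are arrays on which at least 1 probe was above background. Filled points appear at 21 °C alone, in mice 4 and 6, and miR-208a has none.

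Slow-fibre members were then set against the others within each mouse. The summed signal of miR-499 and miR-208b per 100 units of miR-133a came to 1.41, 0.26 and -0.39 at 8 °C, against 1.34, 0.95 and 1.2 at 21 °C. The means were 0.43 ± 0.91 in cold mice and 1.16 ± 0.20 in room temperature mice (SD, n = 3 each, two-sided exact permutation p = 0.4). The numerator was not above background on any cold array, so the cold ratios describe background signal over miR-133a. The difference of -0.74 became -1.23 without mouse 1 and -0.33 without mouse 3. Per 100 units of miR-206 the means were 3.12 ± 7.77 in cold mice and 11.3 ± 2.14 in room temperature mice (exact permutation p = 0.3). Its difference of -8.14 became -12.2 without mouse 1 and -4.45 without mouse 3. With 3 against 3 mice no p could go below 0.1, and these values do not show whether slow-fibre members shifted against the others.

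Of 22 other miRNAs studied in muscle, 19 were measured and 3 passed the test, a share close to the 15.3% of all miRNAs that passed in either direction. miR-378 rose by 0.97 (limma adjusted p = 0.0219); it is encoded in Ppargc1b and is also a brown adipocyte miRNA. miR-186 fell by 1.40 (limma adjusted p = 0.00167) and miR-214 fell by 0.75 (limma adjusted p = 0.0121), and the remaining 16 did not pass. The median difference over the 19 was -0.06. After division by local brightness miR-378 (0.66) and miR-214 (-0.44, limma adjusted p = 0.0387 each) still passed, and miR-186 did not (-0.47, limma adjusted p = 0.098). miR-486, a muscle miRNA that is also abundant in red cells, had a difference of 0.46 (limma adjusted p = 0.308).

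The miRNAs whose levels followed the mean of the 5 members most closely over the 6 mice were miR-128 (Pearson r = 0.95), miR-24-1* (0.91), miR-29b* (0.90), miR-185 (0.90) and miR-214 (0.89). These r describe mice that fall into 2 groups and share arrays, and they carry no p. The difference of cold minus room temperature was -0.49 for miR-128, -0.64 for miR-24-1*, -1.26 for miR-29b*, -0.35 for miR-185 and -0.75 for miR-214, on the log2 scale. All were smaller than those of the members. These 5 miRNAs were dim, with scaled cold means between -6.09 for miR-29b* and -4.9 for miR-214. How far the lower limit of scaled values entered their differences was not tested. After division by local brightness miR-128 (0.98), miR-214 (0.94) and miR-29b* (0.92) stayed among the 5 closest.

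Markers of other cell types were summed per mouse in the same units. The stromal and smooth muscle list had 3 measured members of 4, of which miR-214 and miR-199a-3p fell (-0.77, limma adjusted p = 0.0105), with sums of 495 to 818 units in cold mice and 1117 to 1722 units in room temperature mice. Of all 189 miRNAs, 6.88% passed in the downward direction and 8.47% in the upward. Of the 4 brown adipocyte miRNAs 2 rose, miR-378 and miR-193b (0.64, limma adjusted p = 0.0129). The others, miR-365 (-0.07, limma adjusted p = 0.84) and miR-455 (0.13, limma adjusted p = 0.741), did not pass. None of the 5 leukocyte, 2 erythroid or 2 endothelial miRNAs passed. The leukocyte sums were 437 to 992 units in cold mice and 1121 to 1721 units in room temperature mice, the erythroid sums 11120 to 23870 units in cold and 10950 to 22100 units in room temperature mice, and the endothelial sums 7476 to 12480 units in cold and 11310 to 18880 units in room temperature mice. On no array was any of the 5 epithelial miRNAs above background. Of 3 neural miRNAs, miR-128 alone was measured and did not pass. The stromal and leukocyte sums, which were not scaled, were lower in each cold mouse than in any room temperature mouse. Of all 566 single mouse miRNAs, 16.6% were so placed in unscaled units. The part of these sums in the members' difference was not tested.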

How the data were processed

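Spot intensity after background subtraction was used as the authors deposited it, 1 scanner file per array; Agilent Feature Extraction 10.7.3.1 wrote it, per the file headers (9.5.3.1, per the submitters' processing notes). Control and outlier spots were left out, spots of a probe were averaged, and arrays were scaled to their 75th percentile, taken over the 267 probes that the software called well above background on each of the 8 arrays. Scaled values were given a floor of 0.01 and put on the log2 scale. The filter kept probes with over 0.5 of their spots well above background throughout 1 group or both, and a miRNA was the mean of its kept probes (189 miRNAs, 329 probes). Arrays of one mouse were averaged. Cold minus room temperature was tested with limma 3.58.1 in R 4.3.3, Benjamini-Hochberg adjusted, with a threshold of 0.05. On simulated data for this comparison the fit recovered 40 of 40 miRNAs changed by 2 log2 units among 189, with 1 false call. The simulated noise was independent between miRNAs, equal in both groups and free of any effect of spot position. The simulation thus checks the fit and does not give its power or error rate for the members. Dim members, ratios and sums were compared with a two-sided exact permutation test over mice. The number of arrays limits the precision.

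The members and lists were chosen with earlier results of these data known. Named were the 8 members, those of 22 other muscle miRNAs past the threshold, and the 5 miRNAs most correlated with the members' mean. miR-486, miR-122, miR-193b, miR-365, miR-455 and miR-199a-3p were named after their values were seen. Alternatives were other scalings, a normexp background (offset of 50, on the median signal), the software's total signal, the brightest probe, the median of spots, other filters and floors, the first array of a mouse, the mouse as a random block, an intensity trend with a robust prior, and leaving out each mouse. Added after seeing the data were central spots (rows 65 to 128, columns 11 to 72) and division by local brightness, measured on other miRNAs in a grid of 8 by 6 tiles.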

Additional observations from a re-analysis of the deposited data

How the results depend on the processing

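No setting reversed a member's difference, and the largest ratio difference between members was at most 0.58 in size. The number of miRNAs called was 29, and became 45 with quantile normalisation, 15 with no scaling, 6 with the normexp background, 16 when probes had to be above background on all arrays, 5 with no filter and 13 with central spots. With a mouse left out it was 8 (without mouse 6) to 33 (without mouse 1), with 11 without mouse 2, 14 without mouse 3 and 13 without mouse 5. Of the 5 members, 4 were called, against 0 with no filter, 0 with central spots and 2 with local brightness, and 0 to 5 with a mouse left out; other settings gave 3 to 5. Member probes called were 9, against 2 with central spots (of 8), 3 with local brightness and 0 to 10 with a mouse left out. The miR-208b difference was -21.3 units with central spots, and that of the slow-fibre sum per 100 units of miR-206 was -16.3, each with an exact permutation p of 0.1, as had the sum per 100 units of miR-133a (-0.74), which was -1.14 after division by local brightness (p = 0.3 in the same exact test). Each miR-208b probe had 2 of its 10 spots in the middle rows, and the miR-499 probes had 3 and 1. The central-spot values thus rest on few dim spots. The cause of these shifts was not tested.

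Over 22 alternatives miR-133a and miR-133b were each called in 15, miR-133a* in 13, miR-206 in 6 and miR-1 in 4, and the highest limma adjusted p was 0.427, with no filter. The fit with no filter also held miRNAs at the lower limit of scaled values, such as miR-208a. The weakest differences were -0.77 for miR-133a* and -1.03 for miR-206, both with the normexp background. The higher and lower calls among all miRNAs were 16 and 13, against 1 and 14 without scaling, 11 and 17 when scaled over all probes, 8 and 17 with control RNAs and 23 and 22 with quantile normalisation. The median over all miRNAs moved to -0.46 with no scaling and to 0.21 with normexp. Of 110 ratio values, 13 moved beyond the spread between mice and 27 changed sign. No paired analysis was possible because the mouse numbers are not shared between groups. Signal over background limits the 3 myosin gene members.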
